A study of Homo sapiens with 6 samples.

Results

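The 10 genes described here encode granins and the enzymes that turn prohormones into active peptides. They were taken by name (CHGA, CHGB, SCG2, SCG3, SCG5, PCSK1, PCSK2, PCSK1N, CPE and PAM) from count tables of 62696 genes, and all 10 were found, each under 1 Ensembl identifier. The tables come from DMS53, an established neuroendocrine (NE) small cell lung cancer (SCLC) line, and the comparison asks how forced expression of the transcription factor ONECUT2 (OC2) changes such cells. The 3 control libraries are from cells transduced with an empty lentiviral vector that carries mGFP, and the 3 OC2-OE libraries are from cells transduced with a vector for constitutive expression of mGFP-tagged human OC2. Both groups are otherwise DMS53 cells selected with puromycin, and whether they were pools or single clones is not given in the sources used here.

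Granins are acidic proteins of dense-core granules, the vesicles in which endocrine cells and neurons store peptide hormones, and chromogranin A is a standard marker of NE tumours. Inside the granule, the convertases PCSK1 and PCSK2 cut prohormones after pairs of basic residues, carboxypeptidase E (CPE) trims the exposed basic residues, and peptidylglycine alpha-amidating monooxygenase (PAM) amidates the new end. Small proteins regulate the convertases, since PCSK1N (proSAAS) inhibits PCSK1, while SCG5 accompanies PCSK2 through the secretory pathway and is needed for its activation.

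Libraries held between 16533284 and 19099337 read pairs counted on genes. ONECUT2 checks the labels, and it had 394 to 465 counts in the control libraries and 68853 to 74031 in the OC2-OE libraries. All 7 NE markers listed for the line (SYP, NCAM1, INSM1, NEUROD1, UCHL1, ENO2 and SNAP25) were detected, with a summed level of 2573 to 2613 CPM in control and 2247 to 2271 CPM in OC2-OE libraries. CPM are counts scaled to library size with TMM factors. In OC2-OE cells 5 of these markers were lower and 2 higher, where 28.7% of all tested genes were lower and 27.8% higher. Markers of other cells were low. The 6 fibroblast markers summed to 21.2 to 23.9 CPM in control and 28.1 to 32.1 CPM in OC2-OE libraries, of which COL1A1 gave nearly all, and 2 of the 3 that could be tested were higher. The 5 leukocyte markers summed to 3.69 to 4.24 and 7.16 to 9.001 CPM, with both that could be tested higher and CD3E at 0 throughout. The 4 endothelial markers summed to at least 12.7 CPM in each control library and to 4.17 to 4.73 CPM in OC2-OE libraries, with 2 of the 3 that could be tested lower. Their part in the results was not tested. The study describes the 3 RNA-seq runs of each condition as independent experiments, while the labels do not name separate cultures, and p-values measure the spread between these libraries, and in bulk RNA fewer cells with a transcript and less of it per cell cannot be told apart.

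Enforced OC2 expression moved the convertase genes in opposite directions. PCSK1 had the most counts of all genes in every control library and fell 6.11-fold, whereas PCSK2, low in control cells, rose 35.0-fold. Among the granins, SCG2 rose 2.84-fold and CHGA 2.08-fold, while CHGB was 1.10-fold lower, a call that other fits did not always keep, and SCG3 was not called. PAM fell 2.04-fold and CPE 1.59-fold. At an adjusted p under 0.001 (edgeR quasi-likelihood test with Benjamini-Hochberg adjustment over 17307 tested genes), 4 members were higher in OC2-OE cells, 4 were lower and 2 were not called. The call of CHGB was lost in 6 of 15 alternative fits, which leaves 3 lower there. All 10 passed the filter on low counts. Of all tested genes, 56.5% were called, 27.8% as higher and 28.7% as lower, so 8 called members of 10 is a share to be read against a background where most genes changed. Called changes of 1 or more on the log2 scale were seen in 5 members and in 17.3% of tested genes. PCSK2, SCG2 and CHGA were higher by that much (8.29% of tested genes), and PCSK1 and PAM were lower (9.04%). PAM lies at that limit, with log2 fold changes of -0.98 under both library size and upper-quartile scaling. The median log2 fold change was 0.11 over the 10 members and 0.0071 over all tested genes.

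**Figure D1:**
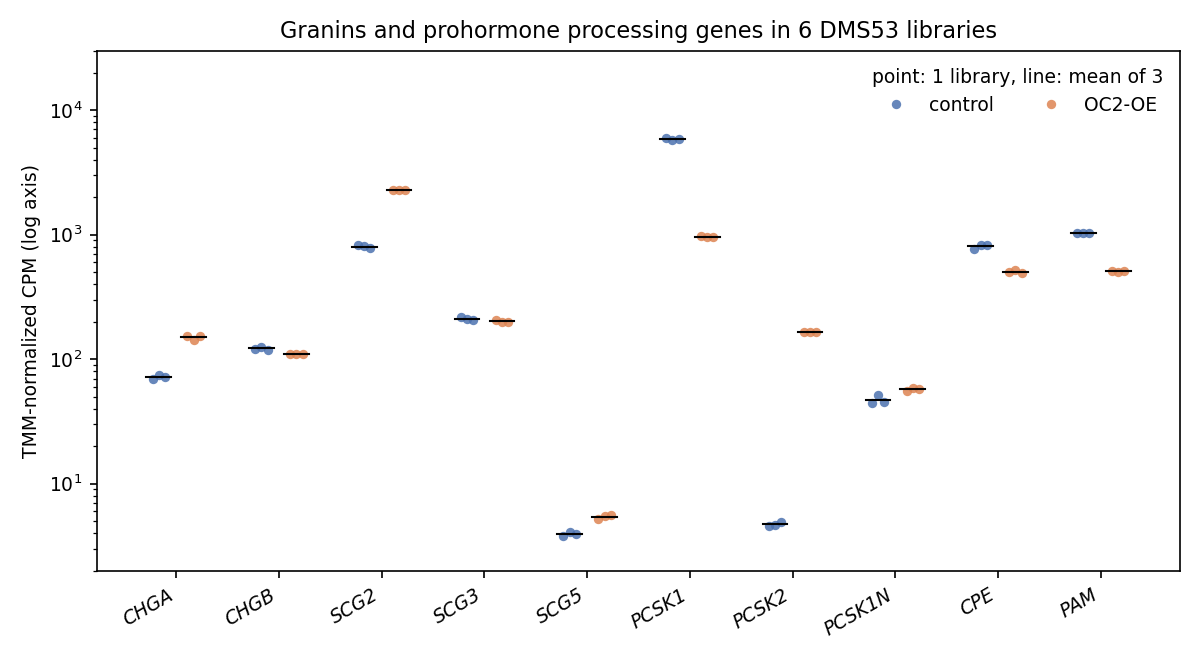
TMM-normalized CPM (log axis) of the 10 genes, with 1 point per library (blue, control; orange, OC2-OE) and a line at the mean of 3. PCSK1 drops from a mean of 5857 to 959 CPM and PCSK2 climbs from 4.73 to 165.5 CPM, with libraries of a group almost on top of each other.

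Stretches of the reference promoters are shown for the genes whose RNA moved farthest and for CHGA, because CHGA and PCSK1 hold a full cAMP response element (TGACGTCA, the letters bound by CREB family factors). RefSeq windows of 300 bases (250 before and 50 after an annotated start, GRCh38.p14) were at hand for 8 members, 12 windows in all, and not for CHGB and SCG2. All are written 5′ to 3′ on the strand of the gene. Capitals mark TGACG, the shorter core of that element, in either orientation, and so a full element appears as 8 capitals. PCSK1 has 2 annotated starts, and the stretch shown, chr5:96433249-96433368 (minus strand), runs up to the more upstream one.
PCSK1: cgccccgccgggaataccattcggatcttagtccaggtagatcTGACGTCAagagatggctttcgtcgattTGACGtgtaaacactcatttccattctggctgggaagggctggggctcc
The CHGA stretch covers chr14:92923030-92923149 (plus strand) and likewise runs up to the start.
CHGA: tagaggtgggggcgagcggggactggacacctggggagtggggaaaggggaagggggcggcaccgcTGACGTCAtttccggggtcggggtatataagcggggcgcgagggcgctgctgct
PCSK2 has 2 annotated starts, with stretches at chr20:17225907-17226026 and chr20:17226920-17227039 (plus strand), and each holds the shorter core only.
PCSK2, first start: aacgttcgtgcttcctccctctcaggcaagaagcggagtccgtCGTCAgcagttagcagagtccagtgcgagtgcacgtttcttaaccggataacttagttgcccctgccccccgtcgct
PCSK2, second start: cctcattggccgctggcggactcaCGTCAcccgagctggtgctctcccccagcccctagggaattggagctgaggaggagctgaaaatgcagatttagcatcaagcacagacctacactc
The full element begins 77 bases before that PCSK1 start and 54 bases before the CHGA start, and 1.85% of all 35116 promoter windows hold it on either strand. PCSK1 and CHGA, the only members with it in these windows, moved in opposite directions. The shorter core (TGACG) was found in 8 of the 12 member windows, from 7 of the 8 members, and in 24.6% of all windows.

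The core letters of ONECUT sites were sought in the same windows on both strands. ATCGAT was in 0 of the 12 member windows and in 0.763% of all windows, and ATCAAT was in 0 of 12 and in 6.26%. The E-box CAGATG was in 0 of 12 and in 14.7% of all windows, and CAGCTG was in 4 of 12 (SCG3, PCSK1 and PAM) and in 17.9% of all. No match means only that these letters are not in these windows. The RE1 element, bound by the neuronal gene repressor REST, was sought as its left and right parts 2 bases apart, and was in 0 of the 12. The SCG3 window held both parts 8 bases apart instead, just after the start at chr15:51681511-51681533 (plus strand), a spacing searched for after the window had been seen and present in 3 of the 35116 windows.
SCG3: TTCAGCACCcacagggcGGACAG
Capitals mark the left and the right part of RE1.

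PCSK1 (ENSG00000175426.11; chromosome 5 of GRCh38, 96390333 to 96434143, minus strand) encodes the convertase that makes the first cuts in many prohormones. It had 5934, 5746 and 5891 CPM in control replicates 1, 2 and 3 and 970, 955 and 953 CPM in OC2-OE replicates 1, 2 and 3. Every OC2-OE library lay far below every control library. In the control libraries this one gene took 0.564% to 0.580% of all counts and ranked first, and in the OC2-OE libraries it took 0.0968% to 0.0985% and ranked between 62 and 64. The log2 fold change was -2.61 ± 0.018 (standard error, SE; adjusted p = 6.15e-129, edgeR quasi-likelihood test), and 2.61% of tested genes changed more in either direction.

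PCSK2 (ENSG00000125851.10; chromosome 20, 17226107 to 17484578, plus strand) encodes the convertase that acts later in granules and completes the cutting of many peptides. Control replicates had 86, 78 and 80 raw counts, against 3167, 2852 and 3036 with OC2. On the CPM scale these are 4.60, 4.66 and 4.92 against 165, 165 and 167. The control level was low but above 0 in every library, and the groups were far apart. The log2 fold change of 5.13 ± 0.060 (SE, adjusted p = 1.24e-103, edgeR quasi-likelihood test) put PCSK2 at rank 56 of the 17307 tested genes by absolute change. An uncharacterised gene on the opposite strand shares 40 of its exon bases and had 9 counts in all.

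PCSK1N (ENSG00000102109.9; chromosome X, 48831096 to 48835610, minus strand), the PCSK1 inhibitor, rose slightly. It had 44.3, 51.3 and 45.6 CPM in control and 55.8, 58.3 and 58.0 CPM in OC2-OE libraries, with the lowest OC2-OE library above the highest control one. Its log2 fold change was 0.29 ± 0.049 (SE, adjusted p = 9.34e-08, edgeR), and 59.8% of tested genes changed more.

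SCG5 (ENSG00000166922.9; chromosome 15, 32641676 to 32697098, plus strand), the partner of PCSK2, could be measured only in part. Of its 2196 exon bases, 1129 (51.4%) are also annotated as exon of the readthrough gene ARHGAP11A-SCG5 on the same strand. The counting options did not allow a read pair to be given to more than 1 gene, so pairs within the shared bases are missing from its value, and ARHGAP11A-SCG5 itself had 22 counts over the 6 libraries. What was left for SCG5 were 71, 69 and 64 counts in control and 99, 95 and 103 in OC2-OE libraries, or 3.80, 4.12 and 3.94 against 5.17, 5.48 and 5.65 CPM. The groups did not overlap, but the log2 fold change of 0.46 ± 0.15 (SE, adjusted p = 0.00413, edgeR) did not pass 0.001. Its 95% interval ran from 0.17 to 0.75. Over the 15 alternative fits its adjusted p was between 0.00148 and 0.026.

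**Figure D2:**
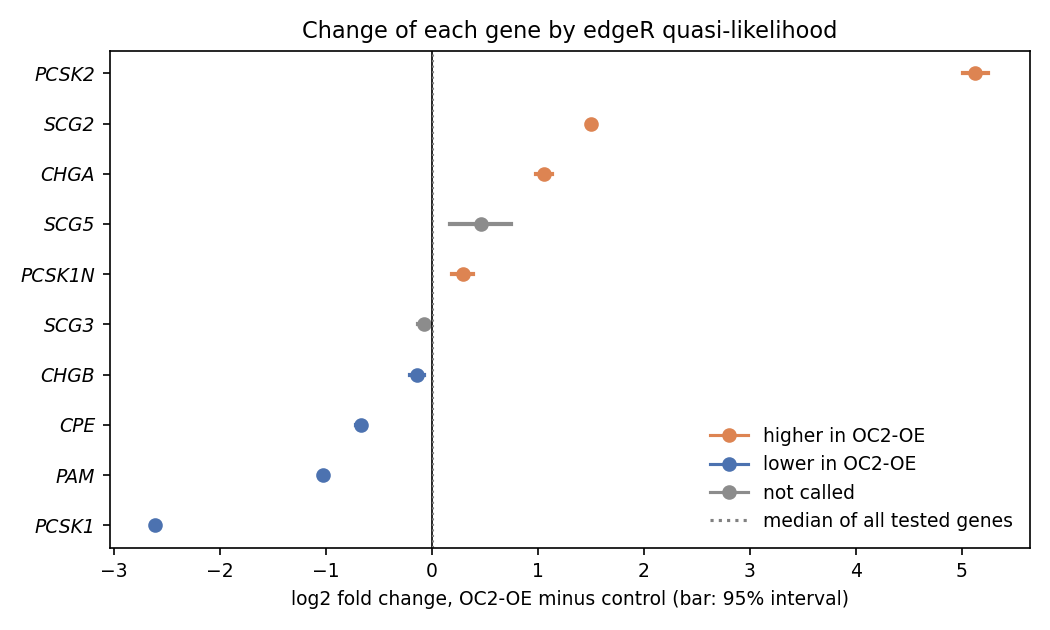
Log2 fold change of OC2-OE minus control for each gene (points) with its 95% interval (bars), coloured by the call at an adjusted p under 0.001; the dotted line is the median of all tested genes. PCSK2 at 5.13 and PCSK1 at -2.61 are at the ends, and SCG5, the gene with the fewest counts in OC2-OE libraries, has the widest interval.

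SCG2 (ENSG00000171951.5; chromosome 2, 223596940 to 223602361, minus strand) encodes secretogranin II, the precursor of the peptide secretoneurin. It had 820, 806 and 778 CPM in control and 2285, 2267 and 2267 CPM in OC2-OE libraries. All OC2-OE libraries were above all control libraries, and they lay closer together than the control libraries did. The log2 fold change was 1.504 ± 0.019 (SE, adjusted p = 1.19e-99, edgeR), larger than that of all but 9.44% of tested genes. By raw counts SCG2 ranked 72 to 83 in control libraries and 16 to 17 in OC2-OE libraries.

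CHGA (ENSG00000100604.13; chromosome 14, 92923150 to 92935285, plus strand) encodes chromogranin A. It had 69.8, 75.1 and 71.9 CPM in control and 154.7, 142.7 and 153.0 CPM in OC2-OE libraries, so the lowest OC2-OE library stood well above the highest control library. The log2 fold change was 1.06 ± 0.036 (SE, adjusted p = 3.33e-53, edgeR). Of 11165 other genes with a mean log2 CPM of at least 3, the 3 whose centred log2 CPM followed CHGA most closely over the 6 libraries were RELL2, CUL7 and OGFR, with root mean square differences of 0.0355, 0.036 and 0.0363. Their log2 fold changes were 1.03, 1.04 and 1.03, and over 2 groups of 3 libraries genes with a change of like size come out as alike.

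CHGB (ENSG00000089199.10; chromosome 20, 5911510 to 5925353, plus strand), the other chromogranin, did not follow CHGA. It had 121.1, 126.3 and 118.9 CPM in control and 110.5, 111.0 and 110.0 CPM in OC2-OE libraries. The groups did not overlap, but the drop was small, with a log2 fold change of -0.14 ± 0.034 (SE, adjusted p = 9.67e-05, edgeR). The call was lost, with the direction kept, under library size scaling, upper-quartile scaling and the DESeq2 Wald test, and without control replicate 2, OC2-OE replicate 1 or OC2-OE replicate 3, with adjusted p between 0.00112 and 0.0107 in these fits.

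SCG3 (ENSG00000104112.9; chromosome 15, 51681492 to 51721026, plus strand) encodes secretogranin III, which binds chromogranin A at the granule membrane. It had 218, 211 and 207 CPM in control and 208, 198 and 199 CPM in OC2-OE libraries. This was the only member whose groups overlapped, and 73.2% of tested genes had groups that did not. Its log2 fold change was -0.07 ± 0.028 (SE, adjusted p = 0.0139, edgeR), with a 95% interval from -0.13 to -0.02.

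CPE and PAM, the enzymes that act after the convertases, were both lower. CPE (ENSG00000109472.14; chromosome 4, 165361194 to 165498547, plus strand) had 773, 828 and 819 CPM in control and 500.2, 523 and 494 CPM in OC2-OE libraries. Its log2 fold change was -0.67 ± 0.023 (SE, adjusted p = 4.88e-43, edgeR). PAM (ENSG00000145730.21; chromosome 5, 102753981 to 103029730, plus strand) makes the amide end on which many neuropeptides depend for activity. It had 1040.0, 1031 and 1028 CPM in control and 512, 501 and 508 CPM in OC2-OE libraries, a log2 fold change of -1.03 ± 0.021 (SE, adjusted p = 2.25e-78, edgeR). Neither gene had a library near those of the other group. PAM has many splice forms, which gene counts add together.

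Levels of different genes were compared per length, as CPM per kilobase of summed exon. In control cells PCSK1 was highest at 1093 ± 18.3 (SD, n = 3), followed by SCG2 at 311 ± 8.30, CPE at 259 ± 9.52, PAM at 137 ± 0.848 and SCG3 at 66.9 ± 1.74 CPM per kilobase. Then came PCSK1N at 35.2 ± 2.79, CHGB at 27.5 ± 0.854, CHGA at 23.9 ± 0.877, SCG5 at 1.80 ± 0.0740 and PCSK2 at 0.673 ± 0.0240 CPM per kilobase. So CHGA, the usual NE marker, was among the lower of these transcripts in control cells, 12.6 to 13.8 times below SCG2 within each library. In OC2-OE cells the order changed at the top, with SCG2 at 882 ± 3.99, PCSK1 at 179 ± 1.73 and CPE at 162 ± 5.01 CPM per kilobase.
Next in OC2-OE cells were PAM at 67.4 ± 0.720, SCG3 at 63.5 ± 1.69, CHGA at 49.6 ± 2.16, PCSK1N at 42.9 ± 1.01, CHGB at 24.8 ± 0.118, PCSK2 at 23.5 ± 0.148 and SCG5 at 2.48 ± 0.113 CPM per kilobase. In neither group did the libraries of any 2 neighbours in the order overlap, although PAM and SCG3, and CHGB and PCSK2, were within 1.06-fold of each other in OC2-OE cells. The order also depends on the summed exon length, whose error replicates do not measure. By CPM without length, PCSK2 (165.5) stood above CHGA (150.1) and CHGB (110.5) in OC2-OE cells. In control cells PAM (1033) then stood above CPE (806) and SCG2 (801). Divided only by its unshared exon bases, SCG5 had 3.70 in control and 5.09 CPM per kilobase in OC2-OE cells, with the same place in both orders. Pairs that reach from an unshared into a shared exon can be missing too. These values may therefore still be too low, and the true place of SCG5 is not established.

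**Figure D3:**
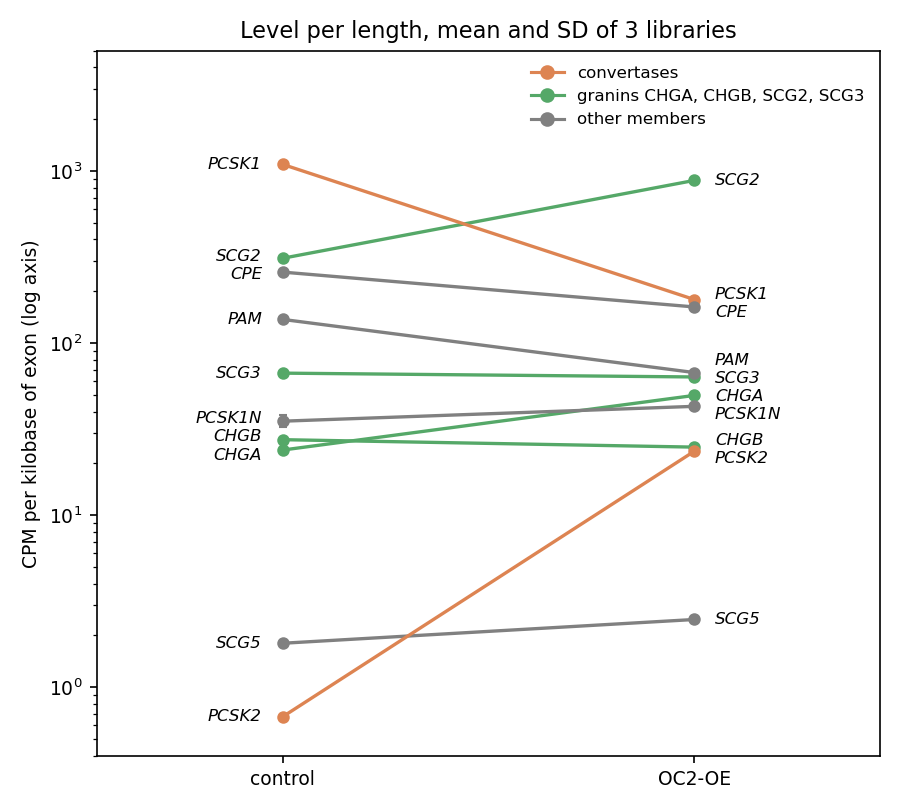
Mean CPM per kilobase of exon (log axis, bars SD, n = 3) of each gene in control and OC2-OE cells, joined by a line. PCSK1 falls from 1093 to 179 while SCG2 rises from 311 to 882 and takes the first place, and PCSK2 climbs from the last place to the level of CHGB.

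Ratios within a library do not depend on the scaling between libraries and are given as a description. PCSK1 exceeded PCSK2 by 1692, 1618 and 1571 times in the control libraries and by 7.70, 7.61 and 7.50 times in the OC2-OE libraries, a ratio 213.9 times smaller. PCSK1 thus stayed the more abundant transcript of the pair, with PCSK2 at 0.0615% ± 0.00227 (SD, n = 3) of their sum in control and 11.6% ± 0.134 in OC2-OE cells. The sum itself went from 1094 ± 18.3 to 203 ± 1.69 CPM per kilobase.
The ratio of PCSK1 to its inhibitor PCSK1N was 33.5, 28.0 and 32.3 in control and 4.34, 4.09 and 4.11 in OC2-OE libraries. PCSK2 stood at 0.378, 0.353 and 0.391 times SCG5 in control and at 9.99, 9.38 and 9.21 times in OC2-OE libraries. That ratio uses SCG5 counts that miss the shared exons, so its size in each group is too high, while its 25.5-fold rise holds as far as the missing share was the same in both groups, which was not tested.
Within the granins, CHGB went from 1.18, 1.14 and 1.12 times CHGA in control to 0.486, 0.529 and 0.489 times in OC2-OE libraries. CHGA rose against SCG3 from 0.335, 0.374 and 0.364 to 0.781, 0.756 and 0.807. The ratio of SCG2 to CHGA moved less, from 13.8, 12.6 and 12.7 to 17.3, 18.6 and 17.4. Added together, CHGA, CHGB, SCG2 and SCG3 had 429 ± 10.2 CPM per kilobase in control and 1020.1 ± 7.21 in OC2-OE cells, of which SCG2 made up 72.5% and 86.5%. In no ratio did the groups overlap.

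**Figure D4:**
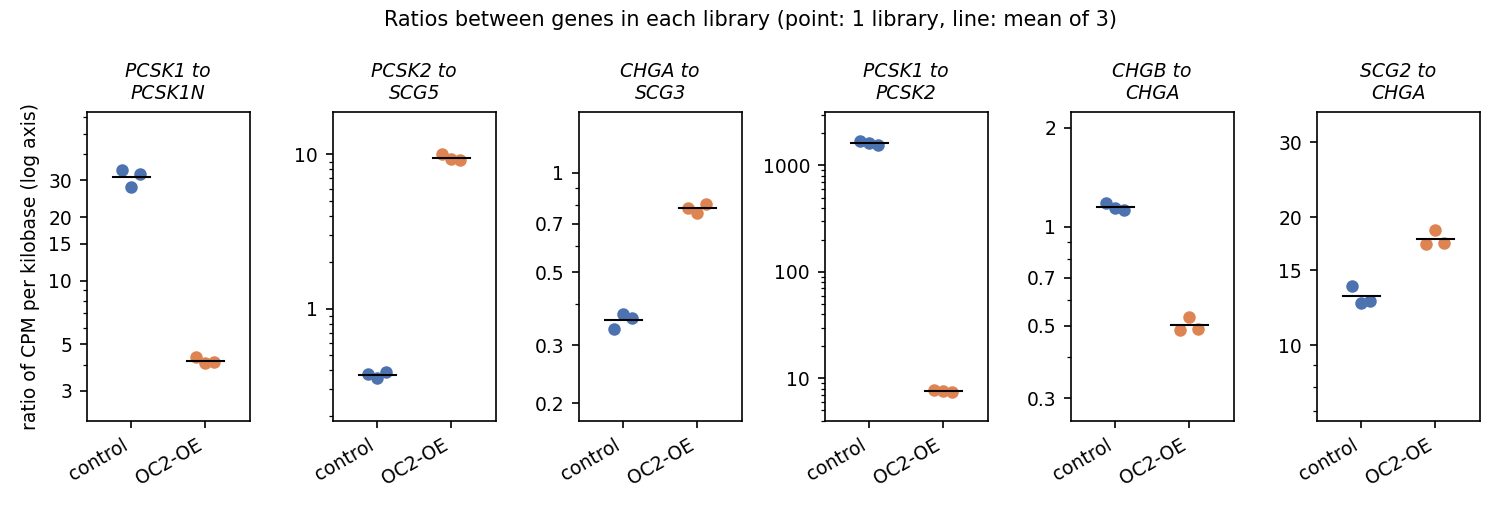
Ratios of CPM per kilobase between pairs of genes (log axes with a scale for each panel), 1 point per library and a line at the mean of 3 (blue, control; orange, OC2-OE). The PCSK1 to PCSK2 ratio goes from a mean of 1627 to 7.60, and the CHGB to CHGA ratio from 1.15 to 0.501.

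Other genes of the granule were followed as lists. Counts in this and the following lists are to be read against all tested genes, of which 56.5% were called, 27.8% higher and 28.7% lower. No list was tested as a set. Of 14 genes for granule cargo and membrane proteins, 12 could be tested, 5 were higher and 2 lower, with a median log2 fold change of 0.12. PTPRN, a granule membrane protein known as an autoantigen in type 1 diabetes, rose from 168 ± 3.05 to 480 ± 7.07 CPM (SD, n = 3), whereas its relative PTPRN2 fell from 100.4 ± 4.34 to 63.5 ± 1.71 CPM. ATP6AP1, a subunit of the proton pump that acidifies granules, rose from 312 ± 5.80 to 556 ± 8.28 CPM, and SLC18A2, which loads monoamines, fell from 48.4 ± 1.67 to 13.2 ± 0.807 CPM. The granins VGF and GNAS, named after their values had been seen, were not called. VGF had 143 ± 9.62 and 139 ± 2.99 CPM (adjusted p = 0.389, edgeR). GNAS had 169 ± 2.53 and 166 ± 3.59 CPM, a sum over transcripts of which only some encode a granin.

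Of 21 other enzymes that process or modify propeptides, 18 could be tested, 7 were higher and 4 lower (median log2 fold change 0.27). QPCT, which closes N-terminal glutamine into pyroglutamate, rose from 290.5 ± 4.53 to 565 ± 10.9 CPM (SD, n = 3). CTSL, a lysosomal protease, rose from 12.7 ± 1.11 to 26.5 ± 1.73 CPM. Carboxypeptidase D (CPD), which like CPE removes basic residues, fell from 511 ± 8.16 to 354 ± 0.813 CPM, and the membrane-bound carboxypeptidase M fell by 1.67 on the log2 scale. FURIN, the convertase of the constitutive pathway, was named after its value had been seen, and fell from 441 ± 9.59 to 229 ± 1.68 CPM (log2 fold change -0.95 ± 0.024, SE).

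All 28 genes of dense-core vesicle biogenesis and release could be tested, and 5 were higher and 11 lower (median -0.11). With library size or upper-quartile scaling, 8 were higher. RAB27B, a small GTPase that tethers secretory vesicles, rose from 10.4 ± 0.881 to 46.3 ± 1.38 CPM (SD, n = 3). SYT7, a calcium sensor of exocytosis, fell from 251 ± 4.34 to 91.1 ± 2.22 CPM, and CADPS2, which primes dense-core vesicles, fell from 119.5 ± 5.94 to 49.4 ± 0.683 CPM. RPH3AL fell from 64.0 ± 3.36 to 34.0 ± 0.0863 CPM. The kinesin KIF1A, which carries dense-core vesicles, had 871 ± 13.7 and 906 ± 13.6 CPM (adjusted p = 0.0078, edgeR, not called), and RAB2A fell from 398 ± 4.77 to 293 ± 6.25 CPM.

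Of 41 prohormone and neuropeptide genes, the substrates of these enzymes, 17 could be tested, 4 were higher and 8 lower (median -0.27), and 10 had no count in any library. When at least 10 counts were required in every library, 5 were higher and 5 lower. CALCA, the gene for calcitonin and its related peptide, was the most abundant by counts and fell from 3774 ± 9.98 to 2630.2 ± 27.0 CPM (SD, n = 3). GRP, whose peptide is amidated by PAM, fell from 132 ± 4.92 to 6.24 ± 0.641 CPM, ADCYAP1 from 103 ± 3.13 to 29.99 ± 1.02 CPM and SST from 112 ± 5.41 to 56.3 ± 1.85 CPM. NTS rose from 5.49 ± 0.167 to 12.9 ± 0.335 CPM.

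Among 8 transcription factors and cofactors known for granin promoters, 4 were higher and 2 lower (median 0.20). EGR1 rose from 9.41 ± 0.833 to 21.2 ± 1.19 CPM (SD, n = 3), and RCOR1, a corepressor of REST, from 21.7 ± 2.43 to 43.9 ± 1.14 CPM. REST, named after its value had been seen, went from 9.91 ± 0.997 to 16.3 ± 0.489 CPM (log2 fold change 0.72, adjusted p = 5.77e-12, edgeR). NEUROD1 fell by 2.32 and INSM1 by 1.93 on the log2 scale.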

How the data were processed

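RNA of 3 control and 3 OC2-OE samples was sequenced as stranded poly(A) libraries. The authors deposited raw counts, the read pairs that featureCounts 1.6.0 gave to the exons of each gene of GENCODE 42 on GRCh38 with strand used; STAR 2.7.9a is in the submitters' processing notes. No normalization or filter was applied to the deposited counts. Pairs that overlap exons of 2 genes are left out by that setting.

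Counts were scaled by TMM in edgeR 4.0.16 (R 4.3.3), filtered with filterByExpr, and 17307 genes were tested with the robust quasi-likelihood test, no replicate term, and Benjamini-Hochberg adjustment over all of them. The threshold of 0.001 is the study's. Standard errors (SE) were derived from the F statistic, and 95% intervals from the SE by the normal approximation. Symbols were matched for 62672 identifiers. The members and lists were chosen with earlier results of these data known. Besides the members, 4 genes per list with the largest change among those called (mean log2 CPM of at least 2) and the 2 with most counts are named, and for CHGA the 3 nearest genes; 1 gene that this rule names is not reported here. Replicates differed by 1.32 to 2.09 times the sampling variance per gene (groups by 95.2 to 106). That is more than counting error alone, but it cannot tell separate cultures from separate preparations of the same RNA. Alternatives included DESeq2 1.42.0 and limma 3.58.1 voom. Promoter sequences are from RefSeq (GRCh38.p14). Protein sequences were not used here.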

Additional observations from a re-analysis of the deposited data

How the results depend on the processing

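The direction of all 10 genes held in the 15 alternative fits (other scalings, DESeq2, limma voom, other filters, ONECUT2 left out, a replicate block and each library left out in turn). CHGB was the member whose call changed at 0.001, and it was lost in 6 of them. Its log2 fold changes there were -0.09 for library size only, -0.10 for upper-quartile scaling and -0.14 for the DESeq2 Wald test. They were -0.12 without control replicate 2, -0.14 without OC2-OE replicate 1 and -0.13 without OC2-OE replicate 3. The other fits with 1 library left out kept the call, with -0.16 without control replicate 3. The cause of the lost calls was not tested. Leaving out libraries gave 4 members higher, 3 to 4 lower and between 8944 and 9340 genes called in all. PCSK1 ran from -2.63 to -2.56 and PCSK2 from 5.11 to 5.18 over all fits. With a change of 1 or more on the log2 scale also required, 2 members were lower, 3 higher and 2999 genes called in all (PAM is at -0.98 with library size only or upper-quartile scaling). At an adjusted p under 0.05, SCG3 and SCG5 would also be called. With at least 10 counts in every library, 5 prohormone genes were higher and 5 lower. Deviations from the group mean hardly correlated between same-numbered libraries (0.0025, 0.034 and 0.026), against -0.031 to 0.0031 between different numbers. Replicates differed by only 1.32 to 2.09 times the sampling variance, which would hide a weak pairing. Whether the numbers pair libraries therefore cannot be told from these values. With the replicate block the members had 4 higher and 4 lower, the same 8 genes, of 9642 called in all. SCG5 had the fewest counts of the 10 genes over both groups together, 204 in control and 297 in OC2-OE libraries.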
